A study of Mus musculus with 35 samples.

Results

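The genes described here encode the proteins of the cytoplasmic ribosome in mouse quadriceps muscle. They were taken by name: a gene was included when a row of the array table carried its symbol alone and the symbol began with Rpl, Rps or Rplp. Kinases of the Rps6k family and pseudogenes were left out. The rule selected 62 of the 19938 genes in the table, 38 with large subunit names and 24 with small subunit names. Of the 62, 53 were core ribosomal protein genes and 6 were paralog-like genes (Rpl3l, Rpl10l, Rpl32l, Rpl39l, Rps27l and Rps4l). The other 3 only share the name: Rps19bp1 encodes a binding protein of Rps19, Rps23rg1 is a retrogene, and Rpl7l1 resembles Rpl7. For 20 further symbols, among them Rpl3, Rpl22l1, Rpl39 and Rps27, the table gave rows shared with other symbols, and no value was assigned to them.

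RNA came from the quadriceps of female mice aged 2 months, with 1 mouse per Affymetrix array and 35 arrays in all. The 4 classes were control mice, Mstn-null mice, which lack myostatin, and mice given 1 dose or 4 doses of ActRIIB-Fc. Myostatin is a secreted inhibitor of muscle growth, and ActRIIB-Fc is a soluble form of a receptor for myostatin, activins and related ligands. Experiment 1 held 3 mice of each class, and the independent experiment 2 held 8 Mstn-null mice and 5 of each other class. The strain, the amount and spacing of the doses and any treatment of the control and Mstn-null mice are not given in the sources used here. Whole muscle was assayed, so fewer cells of a type and less RNA per cell cannot be told apart.

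A ribosome joins a small subunit, which reads the messenger RNA, to a large subunit, which forms the peptide bonds. Each subunit needs its proteins in near equal numbers, and most of their messenger RNAs begin with a run of pyrimidines, the 5′ terminal oligopyrimidine (TOP) tract, through which the kinase complex mTORC1 controls their translation. In growing muscle, ribosome number is one limit on protein synthesis, and translation of these messenger RNAs can change without a change in their amount, which is what the arrays measure.

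The start regions of 8 of the genes are shown because the results turn on these genes: the first 5 were among those lowest in Mstn-null muscle, Rpl28 was higher there, Rps6 changed direction with the scaling, and Rpl3l is the striated muscle paralog of Rpl3. Each is 30 bases of the gene's own strand at or just after a start listed by RefSeq (GRCm38.p6), and capitals mark CTTTTC or CTTTCC, a short search form of the pyrimidine tract. Most run from 15 bases before the start to 15 after it. Where a match was found the stretch was placed around it: from 3 bases before to 27 after for Rps12, whose listed start lies 174 bases inside the annotated gene, from 10 before to 20 after for Rpl28, and from base 21 to base 50 after the start for Rpl36a. The marked letters begin at base 10 after the listed start for Rps12, 3 for Rpl28 and 35 for Rpl36a. A mark is therefore not shown to be the 5′ terminal tract.
Rps12 (chr10:23787183-23787212, minus strand): gccaccgccggcCTTTTCccctgccgccgc
Rpl23 (chr11:97782425-97782454, minus strand): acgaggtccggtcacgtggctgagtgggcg
Rps3a1 (chr3:86142654-86142683, minus strand): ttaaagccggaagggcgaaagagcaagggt
Rpl22 (chr4:152324421-152324450, plus strand): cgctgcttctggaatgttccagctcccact
Rpl36a (chrX:134585674-134585703, plus strand): gctctagcctctctCTTTCCgagctgctag
Rpl28 (chr7:4792955-4792984, plus strand): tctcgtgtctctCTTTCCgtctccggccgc
Rps6 (chr4:86857353-86857382, minus strand): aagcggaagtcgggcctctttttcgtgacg
Rpl3l (chr17:24727811-24727840, plus strand): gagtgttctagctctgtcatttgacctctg

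RefSeq start windows were given for 50 of the 62 genes. CTTTTC or CTTTCC stood on the gene's strand, from 20 bases before to 50 bases after a listed start, in 18 of the 50 (36%), against 6.46% of the 27025 genes with a window. On the opposite strand the same letters were found in 2 of the 50 (4%), against 6.29% of all genes. Core large subunit genes held a match in 12 of 25 windows (48%) and core small subunit genes in 5 of 17 (29.4%). The short form is stricter than the tract itself: Rps6 has a run of pyrimidines at its start that contains neither spelling. Among genes lower in Mstn-null muscle 6 of 21 held a match (28.6%), and among the rest 12 of 29 (41.4%). CCGGAAG, a core of the sites bound by Ets-family factors, was found on either strand, from 250 bases before to 50 after the start, in 18 of 50 genes (36%), against 9.93% of all genes. AAGATGG, a core of YY1 sites, was found in the same window and on either strand in 5 of 50 (10%), against 7.28%. These matches describe letters in the reference, not binding or control.

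Values are the deposited log2 expression values, and where a gene had several rows, its brightest row by mean value stood for it. Changes are log2 differences from limma, fitted on all 35 arrays with experiment as a term, and a gene passed the test at a Benjamini-Hochberg adjusted p under 0.05 over all 19938 genes. The myostatin gene itself was lower in the Mstn-null arrays, with log2 values of 6.29 to 7.84 against 9.84 to 10.21 in the controls of experiment 2, and 5.78 to 6.69 against 6.77 to 7.68 in experiment 1. The 12 skeletal muscle markers averaged 13.47 to 13.58 in the controls of experiment 2 and 13.07 to 13.53 in its Mstn-null mice, with 4 of these 8 arrays (replicates 6, 2, 8 and 7) at 13.07 to 13.29. In experiment 1 they averaged 11.51 to 11.57 and 11.38 to 11.46. Of the 12 markers, Mb (-1.66) and Tnnc2 (-0.34) were lower and Ttn (0.12) higher in Mstn-null muscle, and the median change was 0.02. Ribosomal protein genes lay mostly at high levels: with all genes split by mean level into 10 classes of equal size, 43 of the 62 were in the brightest class and 7 in the next. The Mstn-null arrays of experiment 2 had a narrower spread of values, with an interquartile range over genes of 2.14 to 2.42 against 2.50 to 2.65 in the controls. Their brightest class averaged 9.46 to 9.98, below each control (10.02 to 10.10). In experiment 1 the interquartile range was also narrower, at 2.39 to 2.44 in Mstn-null arrays against 2.47 to 2.74 in controls.

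In Mstn-null muscle, 25 of the 62 genes were lower than in control and 3 were higher on the deposited scale. The median change was -0.15 and turned to 0.04 under quantile normalization and 0.05 under a correction by mean level, so the direction of the family as a whole depended on the scaling. Quantile normalization left 7 lower and 7 higher genes (13.0% and 15.8% of all genes), the correction by mean level 9 and 12 (14.6% and 14.2%), and centring each array on its median 31 and 0 (21.0% and 9.55%). Rps12, Rpl23, Rps3a1, Rpl36a, Rpl22 and Rpl30 were lower under each of the 4 scalings tried, and no gene was higher under all 4. Of all genes, 16.4% were lower and 25.4% higher, but in the brightest class 43.6% were lower and 8.43% higher, with a median of -0.19. The 40.3% of ribosomal protein genes that were lower is thus a share near that of genes of similar level. Set against the median of its own level class, 31 genes were below and 31 above.

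**Figure D1:**
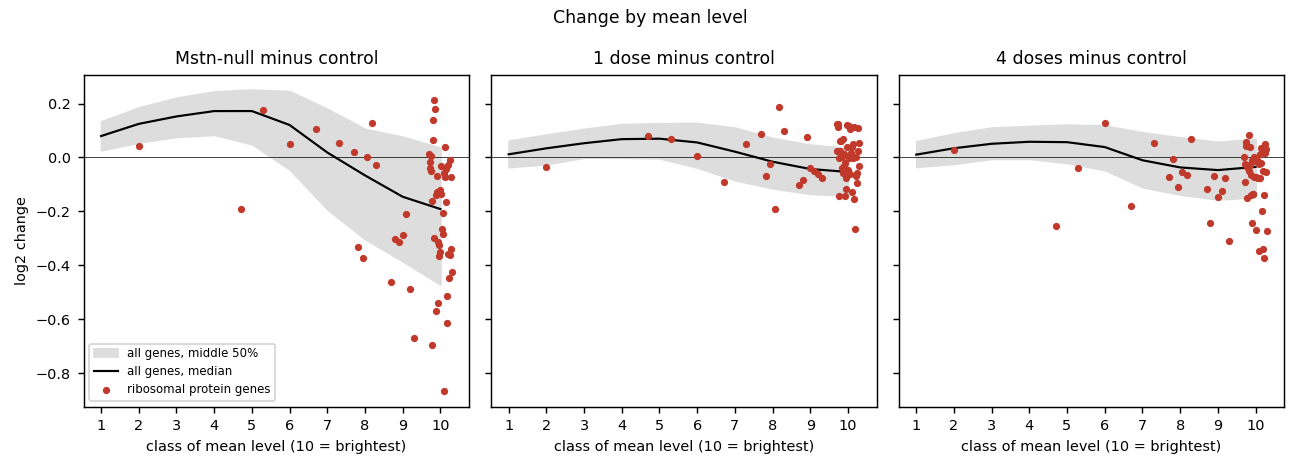
Log2 change against control (vertical axis) by class of mean level (horizontal axis, 10 is brightest), for Mstn-null, 1 dose and 4 doses. The black line is the median of all genes, the grey band their middle 50%, and each red point is 1 of the 62 ribosomal protein genes. In the Mstn-null panel the line falls to -0.19 in the brightest class and the points lie on both sides of it, 31 below and 31 above the median of their class; the family median turns to 0.05 once arrays are corrected by mean level.

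The largest fall was that of Rps12, a small subunit protein. In experiment 1 its log2 values were 8.84, 9.80 and 9.66 in controls and 7.26, 8.35 and 8.53 in Mstn-null mice. In experiment 2 the controls read 10.25, 10.43, 10.34, 10.29 and 10.20, and the 8 Mstn-null mice ran from 8.93 to 10.50, with 7 of them below each control. The groups were separate in experiment 1, and in experiment 2 only Mstn-null replicate 5 lay above the controls. The change was -0.87 ± 0.18 (SE), which is 1.82-fold (limma adjusted p = 0.000422), and under the correction by mean level it was -0.62 (adjusted p = 0.00659).

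Rpl23, a large subunit protein that also binds Mdm2, read 9.44, 9.70 and 9.45 in the controls of experiment 1 and 8.64, 8.89 and 9.12 in Mstn-null mice. The controls of experiment 2 lay between 11.06 and 11.15, while Mstn-null mice ran from 9.70 to 11.33, with replicate 5 again the only one above the controls. The change was -0.69 ± 0.14 (limma adjusted p = 0.000297). Rps3a1, a small subunit protein, was the gene whose 8 Mstn-null arrays of experiment 2 all lay below all controls: 7.40 to 8.73 against 8.82 to 8.91. In experiment 1 its values were 6.88, 6.85 and 7.03 against 7.02, 7.52 and 7.35, so these groups overlapped. Its change was -0.67 ± 0.14 (limma adjusted p = 0.000334).

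Rpl36a, Rpl22 and Rpl30, all of the large subunit, changed by -0.57, -0.46 and -0.33 (limma adjusted p = 0.000735, 0.00262 and 0.00653). After the correction by mean level their changes were -0.37, -0.33 and -0.31, and each still passed the test. Rpl30 gave -0.04 in experiment 1 and -0.48 in experiment 2, a difference that did not pass the test. The other falls among the 10 largest were those of Rps21 (-0.61), Rpl4 (-0.54), Rps20 (-0.51), Rps27l (-0.49) and Rps29 (-0.45), with limma adjusted p from 0.00303 to 0.0189. Of these 5, Rps21 alone passed after the correction by mean level (-0.41, adjusted p = 0.0496), and Rpl4 alone under quantile normalization (-0.31, adjusted p = 0.0248). Rps29 lost its call (adjusted p = 0.0624) without control replicate 3 of experiment 1. The remaining 15 lower genes, Rpl30 among them, changed by -0.42 to -0.21, and include Rpl5, which with 5S RNA forms a particle that binds Mdm2, and Rps3, at the mRNA entry channel. Of the 25 lower genes, 18 passed in each of the 35 fits that leave out 1 array.

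**Figure D2:**
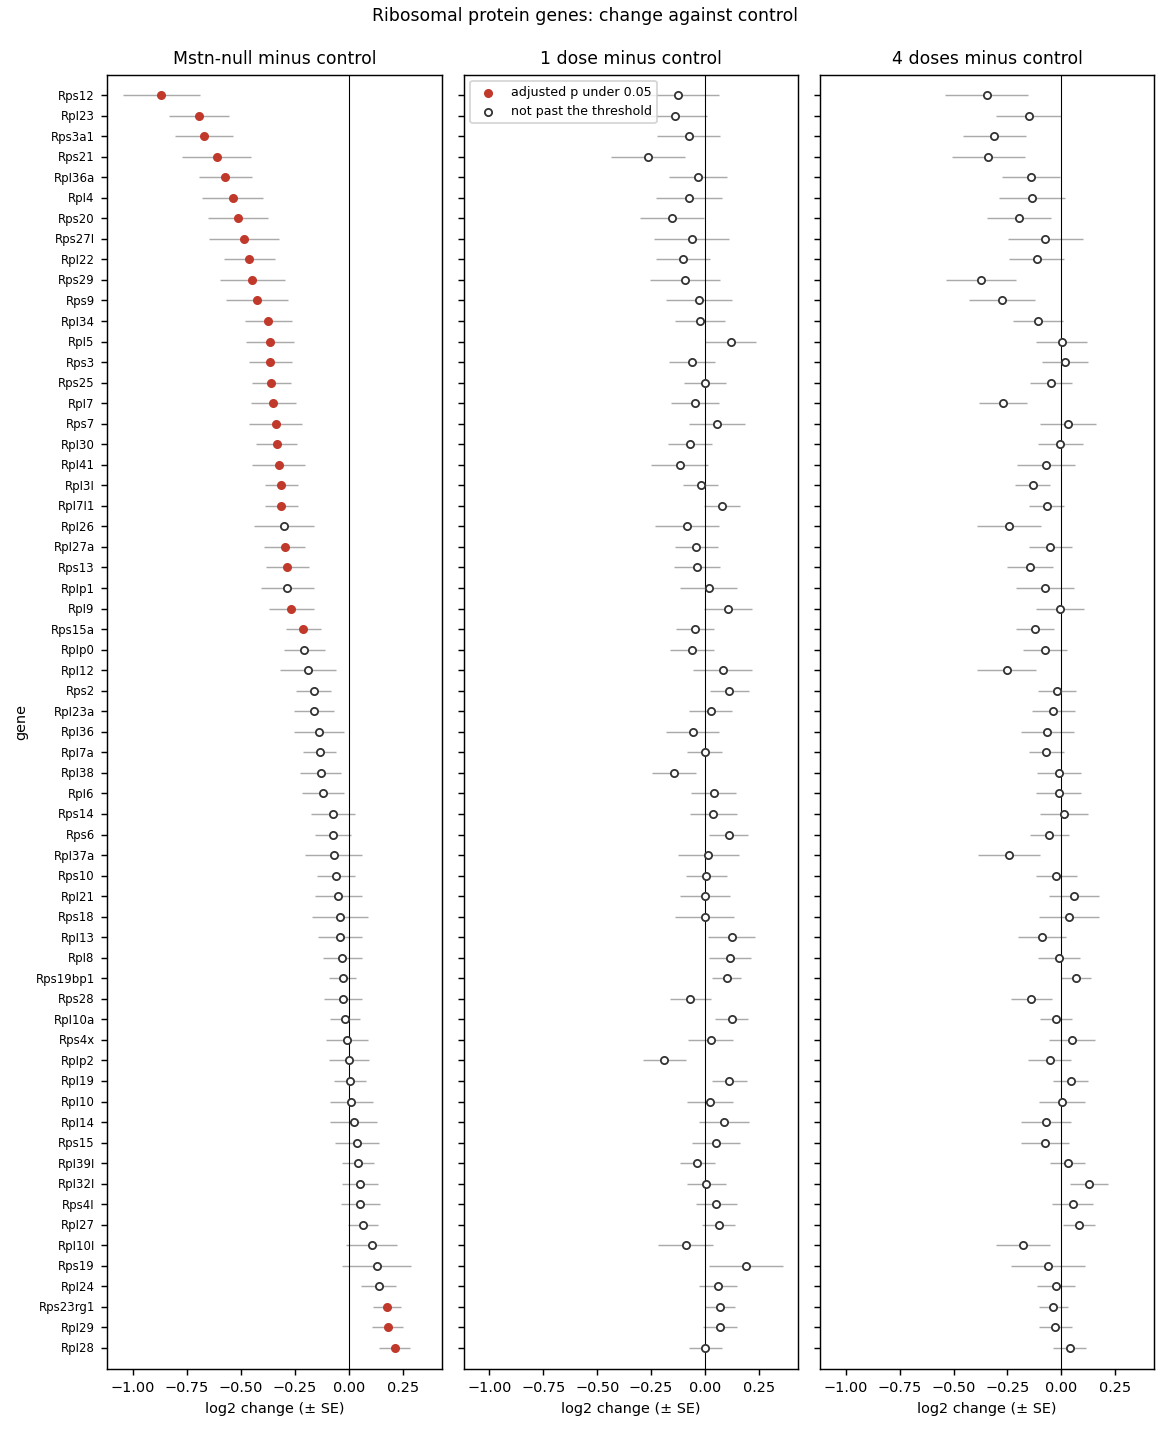
Log2 change against control with its standard error (horizontal axis) for the 62 genes (vertical axis, ordered by the Mstn-null change), in 3 panels. Filled points passed the limma test at an adjusted p under 0.05. In Mstn-null muscle 25 lower and 3 higher genes are filled on the deposited scale, from -0.87 for Rps12 to 0.21 for Rpl28, and no point is filled for 1 dose or 4 doses; under the correction by mean level the Mstn-null counts were 9 lower and 12 higher.

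The 3 genes higher in Mstn-null muscle were Rpl28, Rpl29 and Rps23rg1, and none of them passed when each array was centred on its median. Rpl28, a large subunit protein of animals with no counterpart in bacteria, read 9.81, 9.57 and 9.74 in the controls of experiment 1 and 9.96, 9.96 and 9.83 in Mstn-null mice. In experiment 2 its controls lay between 11.05 and 11.33 and the Mstn-null mice between 11.15 and 11.67, so the groups overlapped. The change was 0.21 ± 0.07 (limma adjusted p = 0.0185), and it was 0.52 under the correction by mean level. Rpl29 changed by 0.18 ± 0.07 (adjusted p = 0.0465) and lost the call in 18 of the 35 fits that leave out 1 array, with an adjusted p of up to 0.118 without control replicate 2 of experiment 1. Rps23rg1 changed by 0.18 ± 0.06 (adjusted p = 0.0273), and lost the call in 4 of those fits, with an adjusted p of up to 0.0673 without control replicate 1 of experiment 1.

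Core small subunit genes were lower in 11 of 20 cases and higher in none, with a median of -0.25. Core large subunit genes were lower in 11 of 33 and higher in 2, with a median of -0.14. Of all genes 16.4% were lower and 25.4% higher, and of the brightest class 43.6% and 8.43%. The correction by mean level gave 3 lower and 3 higher small subunit genes, and 5 lower and 9 higher large subunit genes. Of all genes it gave 14.6% lower and 14.2% higher. A difference between the subunits was not tested.

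Rps6, the small subunit protein phosphorylated downstream of mTORC1, read 9.76, 10.12 and 9.76 in the controls of experiment 1 and 10, 10.08 and 10.18 in Mstn-null mice. In experiment 2 its controls lay between 11.78 and 11.89 and Mstn-null mice between 11.15 and 11.98, the lowest being replicates 2 and 6. Its change of -0.07 ± 0.08 did not pass (limma adjusted p = 0.491). After quantile normalization it was 0.18 (adjusted p = 0.0284), and after the correction by mean level 0.26 (adjusted p = 0.00383).

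The P stalk of the large subunit, which recruits elongation factors, is built from Rplp0, Rplp1 and Rplp2. Rplp0 read 10.46, 10.09 and 10.47 in the controls of experiment 1 and 9.86, 10.12 and 10.15 in Mstn-null mice. In experiment 2 the ranges were 11.80 to 12.17 and 11.31 to 12.28, which overlap. Its change was -0.21 ± 0.09 (limma adjusted p = 0.0776). Rplp1 changed by -0.28 (adjusted p = 0.0605) and Rplp2 by 0.00 (adjusted p = 0.994), so no stalk gene passed on the deposited scale. With arrays centred on their medians, Rplp0 (-0.30, adjusted p = 0.0182) and Rplp1 (-0.38, adjusted p = 0.0178) did.

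Of the paralogs, Rpl3l, which takes the place of Rpl3 in skeletal and heart muscle, read 9.38, 9.45 and 9.45 in the controls of experiment 1 and 9.06, 9.36 and 9.38 in Mstn-null mice. In experiment 2 controls ran from 10.38 to 10.54 and Mstn-null mice from 9.62 to 10.42. Its change of -0.31 ± 0.08 passed (limma adjusted p = 0.00196), but was -0.08 and -0.06, and no longer passed, under quantile normalization and the correction by mean level. Rps27l, a p53-responsive paralog of Rps27, was lower (-0.49 ± 0.16, adjusted p = 0.0173), while Rpl39l, mainly a testis gene, gave 0.04 (adjusted p = 0.667). No value was assigned to the partners Rpl3, Rps27 and Rpl39, nor to Rpl22l1, so a shift between partners was not tested.

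**Figure D3:**
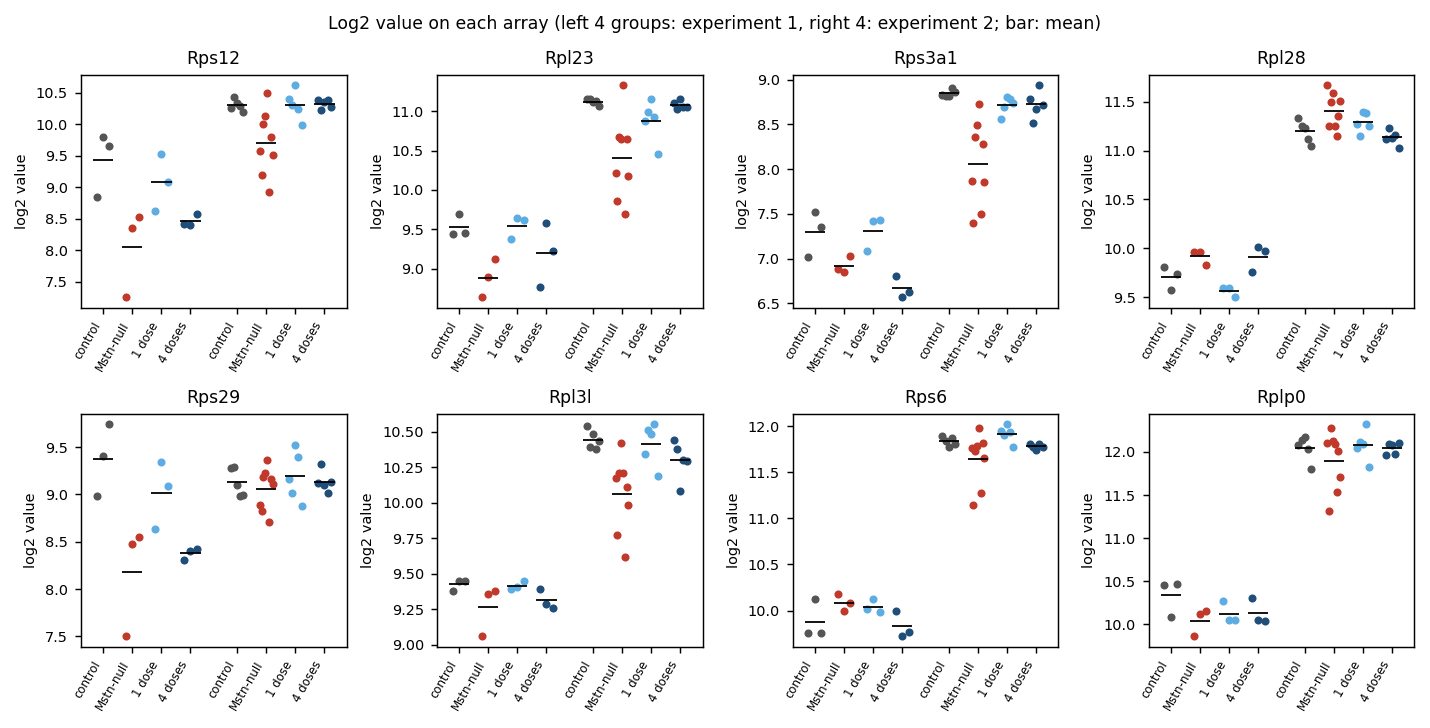
Log2 value of 8 genes on each of the 35 arrays (vertical axis) by class, with the 4 groups of experiment 1 at left and those of experiment 2 at right; points are mice and bars are group means. For Rps12, Rpl23 and Rps3a1 the Mstn-null points of experiment 2 spread downward from the controls, reaching 8.93, 9.70 and 7.40, while for Rps6 and Rplp0 replicates 2 and 6 are low and the rest lie among or near the controls.

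The Mstn-null mice of experiment 2 were spread over a wide range. The 62 genes averaged 9.18 to 9.77 over the 8 Mstn-null arrays of experiment 2 (SD 0.21), against 9.49 to 9.73 in controls (SD 0.09), 9.54 to 9.83 after 1 dose (SD 0.12) and 9.63 to 9.66 after 4 doses (SD 0.01). Replicates 2 and 6 were lowest (9.18 and 9.21) and replicate 5 was above each control. The same replicates 2 and 6 were lowest in the mean of the brightest class of genes (9.46 and 9.52) and replicate 5 was highest there among the Mstn-null mice (9.98). Without replicates 2 and 6, 20 genes were lower and 2 higher, with a median of -0.08, against 14.4% of all genes lower and 19.4% higher. The muscle markers were lowest in the same replicates (13.15 and 13.07). In experiment 1 the average was 8.09 to 8.29 in controls (SD 0.11) and 7.75 to 8.12 in Mstn-null mice (SD 0.19). Mstn-null replicate 1 was lowest there at 7.75, with the others at 8.04 and 8.12. The brightest class of these Mstn-null mice lay between 8.11 and 8.17, inside the control range of 8.09 to 8.32. The part of array scale or of the muscle cells in the falls was not tested. In each experiment the interquartile range was narrower in each Mstn-null array than in each control, so range and class are confounded in this comparison. With the interquartile range of the arrays added to the fit, no ribosomal protein gene passed in Mstn-null muscle. Of all genes, 1.36% passed as lower and 1.63% as higher. At an unadjusted p under 0.05 in limma, a looser threshold than that of these shares, there were 9 of the 62 genes. The share of all genes at that looser threshold is not given here, so the count has no background.

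**Figure D4:**
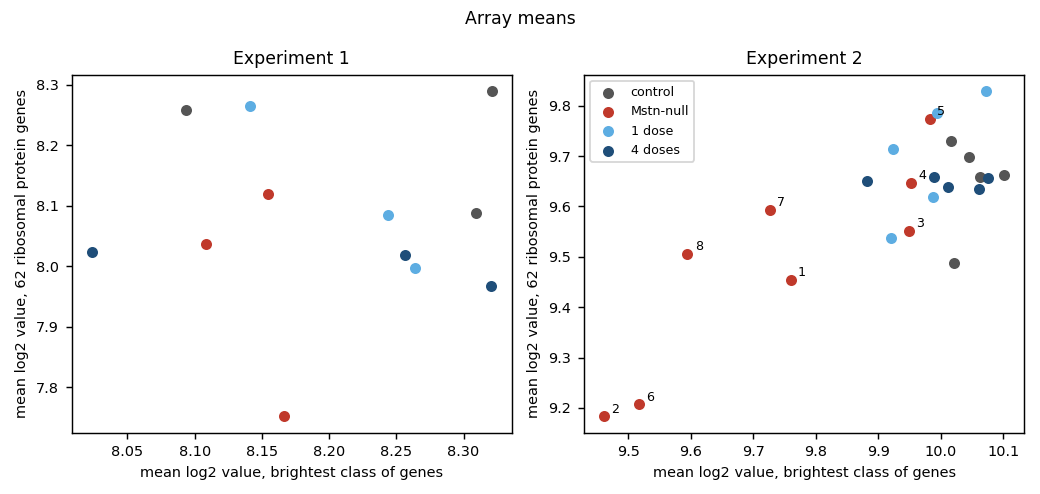
Mean log2 value of the 62 ribosomal protein genes (vertical axis) against the mean of the brightest class of genes (horizontal axis), 1 point per array, coloured by class, for each experiment; numbers are Mstn-null replicates of experiment 2. In experiment 2 Mstn-null replicates 2 and 6 are lowest on both axes (9.18 and 9.21 against 9.46 and 9.52), and the arrays of the other classes read 9.88 or more on the horizontal axis.

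**Figure D5:**
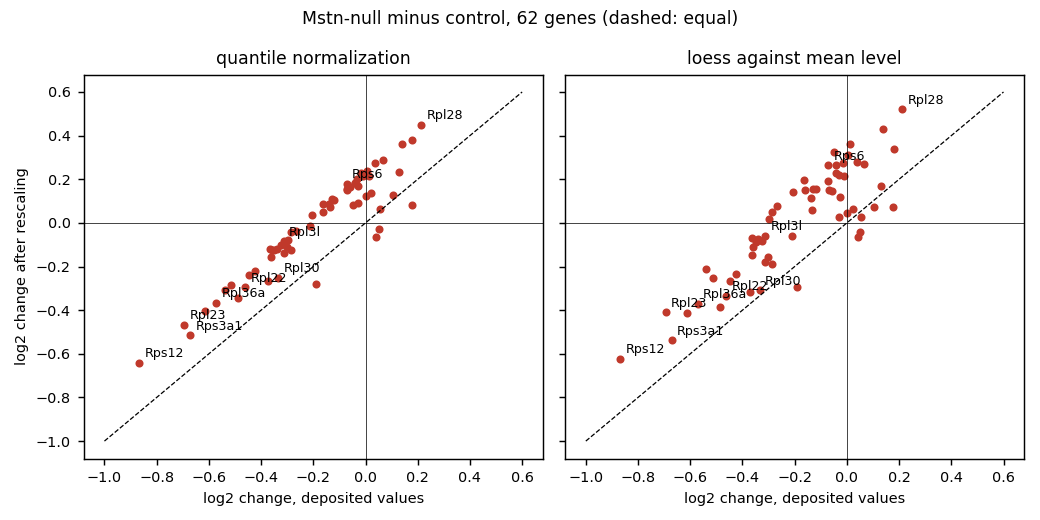
Log2 change in Mstn-null muscle after rescaling (vertical axis) against that on the deposited values (horizontal axis) for the 62 genes, with quantile normalization at left and the correction by mean level at right. Above the dashed line of equality lie 58 points at left and 56 at right. Rps12 stays low in both (-0.64 and -0.62), and Rps6 moves from -0.07 to 0.18 and 0.26.

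Within experiment 1, 12 of the 62 genes (19.4%) had all Mstn-null arrays below all controls, against 13.9% of all genes and 23.7% of the brightest class: Rpl22, Rpl23, Rpl26, Rpl36a, Rpl37a, Rpl3l, Rpl7l1, Rplp1, Rps12, Rps21, Rps29 and Rps9. All arrays lay above the controls for 4 genes (Rpl24, Rpl28, Rps18 and Rps19bp1), against 11.6% of all genes. Within experiment 2 Rps3a1, which is in class 9 of mean level, was the single gene below (5.52% of all genes, 16.2% of the brightest class). It was also below after 1 dose. No gene was separate from controls in both experiments, where 2.57% of all genes lay below (7.47% of the brightest class) and 1.4% above. The median change was -0.19 in experiment 1 and -0.14 in experiment 2 on the deposited scale. Rescaling left the median below 0 in experiment 1, at -0.09 with quantile normalization and -0.10 with the correction by mean level. In the fit of 8 group means, 8 genes were lower and 0 higher in experiment 1 on the deposited scale. The like shares were 2.70% and 0.777% of all genes, and 5.67% and 2.56% of the brightest class. Quantile normalization gave 5 lower and 2 higher (1.665% and 1.444% of all genes), and the correction by mean level 7 and 3 (2.523% and 1.555%). In experiment 2 rescaling turned the median to 0.07 and 0.11. There 19 genes were lower and 2 higher on the deposited scale (16.7% and 28.9% of all genes), 4 and 14 with quantile normalization (14.0% and 17.6%), and 3 and 19 with the correction by mean level (15.7% and 15.4%).

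The change differed between the experiments for 1 gene, Rps29, a small zinc-binding protein of the small subunit, against 1.68% of all genes. Its log2 values in experiment 1 were 8.98, 9.41 and 9.74 in controls and 7.50, 8.48 and 8.55 in Mstn-null mice, which are separate. In experiment 2 controls ran from 8.98 to 9.29 and Mstn-null mice from 8.71 to 9.36, which overlap. The change was -1.20 in experiment 1 (limma adjusted p = 0.00141) and -0.07 in experiment 2 (adjusted p = 0.701), and the difference was 1.13 ± 0.26 (adjusted p = 0.0251). A difference between experiments had an unadjusted p under 0.05 in limma for 18 of the 62 genes. That held for 22.1% of all genes and 28.8% of the brightest class. Genes that did not pass are not thereby shown to change alike in both experiments.

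After 1 dose of ActRIIB-Fc, no ribosomal protein gene passed the limma test, while 1.11% of all genes passed. None of the 62 had an unadjusted p under 0.05, against 2377 of all 19938 genes. Changes ran from -0.27 to 0.19 with a median of -0.00. The median was -0.10 in experiment 1, with 44 of the 62 genes below 0. In experiment 2 it was 0.06, with 16 below 0. Like medians were -0.003 and 0.04 for all genes, and -0.03 and -0.06 for the brightest class. Quantile normalization gave the 62 genes -0.09 and 0.12. The smallest p-values belonged to Rplp2 (-0.19, adjusted p = 0.454), Rpl10a (0.12, adjusted p = 0.540) and Rps21 (-0.27, adjusted p = 0.564). For 59 of the 62 genes the 95% interval of the change lay within 0.5 of 0 on the log2 scale, a 1.41-fold change, as it did for 92.4% of all genes. The lowest bound was -0.61, for Rps21, and the highest 0.54, for Rps19. Rps12 read 8.63, 9.53 and 9.09 in experiment 1 and 9.99 to 10.62 in experiment 2, overlapping its controls in both. All 1-dose arrays of experiment 1 lay below all controls for Rpl7l1 and Rps3, against 4.47% of all genes. In experiment 2 they did for Rps3a1 (8.56 to 8.81 against 8.82 to 8.91), against 2.94% of all genes and 8.425% of the brightest class. Rps3a1 itself is in class 9 of mean level, whose share is not given here. Rpl7l1 alone lay above all controls in experiment 2, against 4.17% of all genes.

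After 4 doses, no gene passed, while 3.14% of all genes passed. An unadjusted p under 0.05 was found for 3 of the 62 genes and for 2919 of all 19938 genes. The median was -0.06, with a range from -0.37 to 0.13. The smallest p-values were those of Rpl7 (-0.27, adjusted p = 0.219), Rps29 (-0.37, adjusted p = 0.266) and Rps3a1 (-0.31, adjusted p = 0.310). The interval lay within 0.5 of 0 for 53 of 62 genes and for 90.6% of all genes, and the lowest bound was -0.74, for Rps12. Rps6 gave -0.06 (adjusted p = 0.832), Rplp0 -0.08, Rplp1 -0.08, Rplp2 -0.05 and Rpl3l -0.13, none of which passed.

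The experiments were also examined one by one. In experiment 1 the median change was -0.16, and 11 of the 62 genes (17.7%) had all 3 arrays below all controls, against 7.80% of all genes and 12.9% of the brightest class. These were Rpl22, Rpl37a, Rpl4, Rpl7, Rplp1, Rps12, Rps20, Rps21, Rps29, Rps3a1 and Rps9. For 2 genes, Rpl27 and Rps19bp1, all 3 arrays lay above all controls, against 5.78% of all genes and 10.8% of the brightest class. In experiment 2 the median was -0.00 and no gene was separate from controls in either direction, against 2.80% of all genes below. Rps12 read 8.41, 8.40 and 8.58 in experiment 1, below the control range of 8.84 to 9.80, and 10.23 to 10.39 in experiment 2, inside the control range of 10.20 to 10.43. Rps29 was the 1 gene that passed within experiment 1 (-1.001, limma adjusted p = 0.0210; 0.471% of all genes passed there), against 0.01 in experiment 2. It also passed there with quantile normalization (-0.94, adjusted p = 0.0301), and with the correction by mean level (-0.98, adjusted p = 0.0178) together with Rpl7 (-0.63, adjusted p = 0.0350). Of all 19938 genes, 116 and 149 passed there under these scalings. For 1 dose in experiment 2 Rpl7l1 passed under those scalings (0.31, adjusted p = 0.0256, and 0.27, adjusted p = 0.0426) and not on the deposited one. Of all 19938 genes, 192 and 327 passed in that comparison. In experiment 1 all 1-dose arrays of Rpl7l1 lay below all controls, the opposite direction. No gene's difference between the experiments passed in limma for 4 doses or 1 dose, where 0.00502% and 0.0% of all genes passed. An unadjusted p under 0.05 was found for 12 and 4 of the 62 genes. The like shares were 7.38% and 5.13% of all genes, and 11.1% and 2.86% of the brightest class.

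Between 4 doses and 1 dose no gene passed, while 0.321% of all genes passed. An unadjusted p under 0.05 was found for 1 of the 62 genes and for 1482 of all 19938 genes. The median was -0.07, and 49 of the 62 genes were lower after 4 doses, as 49 were against the median of their own level class. Rpl12, which sits at the base of the P stalk, had the smallest p (-0.33, limma adjusted p = 0.474), followed by Rpl7 (-0.22) and Rpl10a (-0.15). For 55 genes the 95% interval lay within 0.5 of 0, as it did for 93.8% of all genes.

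Against Mstn-null mice, treated mice had higher values for a subset of the genes. These comparisons share the Mstn-null arrays, so they are not independent of each other or of the comparison with controls. After 1 dose 16 genes were higher and 1 (Rpl28, -0.21) was lower, with a median of 0.16, against 10.9% of all genes higher and 5.90% lower, and 32.6% higher in the brightest class. The largest differences were those of Rps12 (0.74), Rps3a1 (0.60), Rpl23 (0.55), Rpl36a (0.54) and Rpl5 (0.48), with limma adjusted p from 0.00254 to 0.00574. These 5 and Rpl7l1 (0.39) were higher under all 4 scalings. Next came Rpl4 (0.46), Rps7 (0.39), Rpl9 (0.37) and Rps25 (0.36), and Rpl3l gave 0.29 (adjusted p = 0.00764). The median fell to 0.02 under quantile normalization and 0.01 under the correction by mean level, with 7 and 6 genes higher and 4 lower in each (8.37% and 9.16% of all genes higher, 7.59% and 6.09% lower). No ribosomal protein gene passed with the interquartile range in the fit or in experiment 1 alone, where 2.51% and 2.01% of all genes passed. At the looser threshold of an unadjusted p under 0.05 in limma there were 13 in either, and the like shares of all genes are not given here. With the replicate number as a block 6 passed (6.24% of all genes), and without Mstn-null replicates 2 and 6 of experiment 2, 11 (11.2%). Of the 16 higher genes, 11 passed in each fit that leaves out 1 array.

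After 4 doses 11 genes were higher than in Mstn-null mice and 2 lower (Rps23rg1 and Rpl29, both -0.21), with a median of 0.09, against 11.4% of all genes higher and 8.75% lower, and 34.8% higher in the brightest class. Rpl23 (0.54), Rps12 (0.52), Rpl36a (0.43), Rpl4 (0.40) and Rps3 (0.38) led, with limma adjusted p from 0.00701 to 0.0427, followed by Rps7, Rpl5, Rpl22, Rpl30 and Rps25 (0.37 to 0.31) and Rpl7l1 (0.24). The direction of the median turned under quantile normalization (-0.06, 3 genes higher and 4 lower, against 8.47% and 7.79% of all genes) and under the correction by mean level (-0.09, 1 higher and 7 lower, against 9.4% and 6.75%), and only Rpl30 was higher under all 4 scalings. No ribosomal protein gene passed with the interquartile range in the fit or in experiment 1 alone, where 1.98% and 0.015% of all genes passed. At the looser threshold of an unadjusted p under 0.05 in limma there were 8 and 2, and the like shares of all genes are not given here. With the replicate number as a block 1 passed (6.08% of all genes), and without Mstn-null replicates 2 and 6 of experiment 2, 5 (11.4%). The count of 13 fell to 6 to 8 genes when any of 5 single arrays was left out (4 doses replicates 1, 4 and 5, and Mstn-null replicates 2 and 8, of experiment 2): 6, 7, 6, 8 and 8 in that order. Leaving out Mstn-null replicate 5 raised it to 19. In each of the 35 such fits 5 of the 11 passed: Rpl23, Rps3, Rpl36a, Rpl30 and Rps25.

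Several of the genes have processed copies in the genome, and 38 of the 62 had more than 1 row, up to 14 for Rps12. A row may also read a near-identical copy, so values of genes with several rows are uncertain in that respect. Some rows repeat the same values: the 14 of Rps12 hold 8 distinct ones. In 32 of the 38 genes each row had the same sign of change in Mstn-null muscle, among them all 15 that passed. Rpl13, Rpl19, Rpl27, Rps10, Rps28 and Rps4x had rows of both signs. The rows of Rps12 gave changes from -0.87 to -0.69. Over the 38 genes the rows differed by a median of 0.07, and by at most 0.25 (Rps4l). Genes with 1 row were lower in 11 of 24 cases and higher in 2, and genes with more rows in 14 of 38 and 1, on the deposited scale.

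Genes whose products assemble the ribosome were measured in the same fit. Of 54 ribosome biogenesis genes, 29 were lower in Mstn-null muscle, 4 higher and 21 did not pass (median -0.24). By mean level 22 of them were in class 8, where 10 were lower and 31.0% of all genes were. Another 19 were in class 9, where 12 were lower and 38.6% of all genes were. These include nucleolin (Ncl, -1.42), the large subunit GTPase nucleostemin (Gnl3, -0.89), Sbds, which helps release Eif6 from the large subunit (-0.73), and Rbm28 (-0.72), with limma adjusted p from 7.63e-06 to 0.000128. Quantile normalization gave 23 lower and 9 higher, and the correction by mean level 24 lower and 7 higher, so falls outnumbered rises under each scaling. With the interquartile range in the fit, which is confounded with class as given above, 1 was lower. After 1 dose none of the 54 passed and after 4 doses none passed (median -0.10, 46 below 0). After 4 doses 8 of the 54 had an unadjusted p under 0.05 in limma, against 2919 of all 19938 genes.

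Of 16 genes for RNA polymerase I transcription, which makes the large ribosomal RNAs, 6 were lower in Mstn-null muscle and none higher, among them Twistnb (-0.83), Taf1a (-0.66), Ttf1 (-0.49) and Taf1b (-0.38). They were spread over classes 5 to 10 of mean level, where 7.72% to 43.6% of all genes were lower (16.4% over all classes). Quantile normalization and the correction by mean level each gave 5 lower and 3 higher. Of 18 translation factors and other genes with TOP messenger RNAs, 7 were lower and 1 higher, with Npm1 (-1.08), Eif4a2 (-0.56), Nap1l1 (-0.49) and Eif3f (0.31). Of these 18, 14 were in the brightest class, where 5 were lower and 43.6% of all genes were. The balance of the 18 depended on the scaling: 6 lower and 6 higher under quantile normalization and 5 lower and 7 higher under the correction by mean level. Of 18 genes of mTORC1 and its control of translation, 4 were lower and 2 higher, with Rheb, the GTPase that activates mTORC1 (-0.59), Sesn1 (-0.47), Mlst8 (-0.26) and the inhibitor Deptor (0.33). In the brightest class were 9 of them, where 3 were lower and 43.6% of all genes were. Another 6 were in class 9, where none was lower and 38.6% of all genes were. Quantile normalization turned the counts of this list to 1 lower and 6 higher. With 1 dose none of these genes passed, and with 4 doses the mTORC1 inhibitor Ddit4 was the single one (-0.99, limma adjusted p = 0.0398).

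Markers of other cells passed the test in some comparisons. In Mstn-null muscle 7 of 20 macrophage and myeloid markers were higher and none lower. Of 21 cell cycle genes 10 were higher and 1 lower, and 7 of 13 endothelial markers were lower. Of all genes 25.4% were higher and 16.4% lower. The macrophage and cell cycle lists lay mostly in classes 2 to 7 of mean level, where 22.33% to 44.05% of all genes were higher. The endothelial list lay in classes 7 to 9, where 23.48% to 38.62% of all genes were lower. These counts are on the deposited scale. The adipocyte list had 1 of 6 lower, the fibro-adipogenic list 1 of 11 lower, the erythroid list 1 of 2 higher, and the skeletal muscle list 2 of 12 lower and 1 higher. The endothelial markers averaged 7.37 to 8.14 in the Mstn-null arrays of experiment 2 and 7.98 to 8.06 in controls, and the macrophage markers 6.63 to 7.35 and 6.35 to 6.65. After 4 doses 11 of 20 macrophage markers, 14 of 21 cell cycle genes and 3 of 11 fibro-adipogenic markers were higher, against 1.91% of all genes. The macrophage markers averaged 7.08 to 7.32 after 4 doses in experiment 2. None of these markers passed after 1 dose. Their part in the ribosomal protein values was not tested.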

How the data were processed

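RNA from 35 quadriceps (8 groups: 4 classes in each of 2 experiments) was hybridised to Affymetrix arrays after TRIzol extraction and biotin labelling, per the labels' protocols. The deposited log2 values were made by the authors with RMA, limma 3.4.4 and R 2.11.1, per the submitters' processing notes; no genome build of the probes is named there. Precision is limited by how many arrays each group holds. Of 35556 rows, 21789 carried 1 gene symbol, 1621 several and 12146 none; the highest-mean row was taken for each of 19938 genes. All 62 genes matched RefSeq by symbol.

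limma 3.58.1 (R 4.3.3) was fitted to class plus experiment over all arrays, with Benjamini-Hochberg adjustment; changes within an experiment and their difference came from a fit of 8 group means. Scripts were tested on simulated data. Alternatives were quantile normalization within experiment, median centring, a loess correction by mean level, interquartile range as a covariate, a replicate block, no dim genes, mean of rows, an intensity trend, each experiment alone, and leaving out each array. Leaving out Mstn-null replicates 2 and 6 of experiment 2, and the loess correction for the difference between experiments, were chosen after seeing the data. The genes and lists were chosen with earlier results of these data known. Genes named were the P stalk, Rps6, paralog pairs, the 10 largest rises and falls that passed (or the 3 smallest p where fewer than 3 passed), and up to 4 genes of each list by p; genes printed by array or named for separation or scaling were chosen after their values were seen. Samples of a group are labelled as biological replicates and were taken as separate mice; within groups arrays correlated at 0.954 to 0.996 and none was a copy.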

Additional observations from a re-analysis of the deposited data

Results flagged for a closer look

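Rps29 stood out because its change in Mstn-null muscle differed between the experiments by a test of the difference itself: 1.13 on the log2 scale (limma adjusted p = 0.0251), from -1.20 in experiment 1 to -0.07 in experiment 2. No outlying array was found in the 36 groups of values tested, where chance alone gives about 1 in 20. The design has 3 to 8 arrays in a group, so such a test can miss an array that stands apart. It does not clear Mstn-null replicates 2 and 6 of experiment 2, which had the lowest means of their group.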

How the results depend on the processing

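For 1 dose or 4 doses against control and 4 doses against 1 dose, no ribosomal protein gene passed in any alternative to the fit over both experiments, nor with either experiment fitted alone; in the fit of 8 group means Rps29, Rpl7 and Rpl7l1 passed within 1 experiment, as given above. For Mstn-null against control, 28 genes passed on the deposited scale, 14 (7 lower, 7 higher) with quantile normalization, 0 with the interquartile range as a covariate and 2 in experiment 1 alone, which has 3 mice a class; the median was 0.043 with quantile normalization and 0.048 with the correction by mean level. Median centring gave 31 lower and 0 higher. The interquartile range separated Mstn-null arrays from controls in each experiment, so the fit with this covariate cannot tell range from class. For 4 doses against Mstn-null, 13 genes passed on the deposited scale, 7 with quantile normalization (median -0.059), 8 with the correction by mean level (median -0.086), 0 with the covariate, 1 with the replicate block, 0 in experiment 1 alone and 5 without Mstn-null replicates 2 and 6. For 1 dose against Mstn-null, 17 passed, against 11 (median 0.017), 10 (median 0.011), 0, 6, 0 and 11 under the same alternatives. Rps6 reversed in Mstn-null against control (0.18 quantile, 0.263 by mean level) and in 4 doses against Mstn-null (-0.19 and -0.275), and Rpl4 gave -0.016 for the latter in experiment 1 alone. The correction by mean level called 2 genes for the difference between experiments, Rps29 and Rplp1. Leaving out 1 array at a time gave 23 to 30 genes for Mstn-null against control, 6 to 19 for 4 doses and 13 to 23 for 1 dose against Mstn-null, with medians of -0.177 to -0.116, 0.063 to 0.113 and 0.127 to 0.194. Replicate numbers did not pair the arrays: deviations of same-numbered arrays correlated at a median of 0.017 in experiment 1 and -0.003 in experiment 2. The replicate block gave 20 genes for Mstn-null against control. The shares of all genes for this count and for the 2 genes of experiment 1 alone are not given here. Why a setting moved a value was not tested.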
